A study of Mus musculus with 8 samples.

Results

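Long intergenic non-coding RNA genes (lincRNA genes) are the 5854 genes that GENCODE M21 annotates with that type on the mouse build mm10 (GRCm38). The members described here are the 794 of them that held 80 or more counts over 8 libraries of mouse oocytes together. They were chosen by this total alone, which uses both groups and not the difference between them. In all, 2888 lincRNA genes had at least 1 count, and 10631 of the 52502 genes matched in the files reached 80 counts. The rule also leaves out the imprinted genes H19, Meg3 and Peg13, which takes nothing away, since none of them reached 80 counts as a lincRNA gene. At the threshold, with 80 counts, lay C230014O12Rik (29 counts in control and 51 in the conditional knockout, cKO) and Gm26612 (70 and 10). Just outside it, with 79 counts, were Gm12023 (43 and 36) and Gm20750 (32 and 47).

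A long non-coding RNA is a transcript with no recognised protein product, and a lincRNA is one whose gene lies apart from coding genes. Most are transcribed by RNA polymerase II, spliced and polyadenylated like messenger RNA, at lower levels and in fewer cell types. In the oocyte, which stops transcription when it is fully grown, the stored pool of RNA depends on synthesis during growth and on later stability. N6-methyladenosine (m6A) is a methyl mark that a writer complex places on messenger and long non-coding RNA, often within the letters GGACT. Kiaa1429, listed as Virma in the annotation, is a scaffold subunit of that complex.

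The samples were germinal vesicle (GV) oocytes, arrested in meiotic prophase, of C57BL/6 females, with 4 libraries of control oocytes (Kiaa1429F/+;Zp3-Cre) and 4 of Kiaa1429 cKO oocytes (Kiaa1429F/F;Zp3-Cre). Both groups carried Zp3-Cre, a recombinase driven by a promoter active in growing oocytes, so the controls had 1 floxed allele and the Cre, and the cKO females had floxed alleles only. The age is given as 20 days in the labels and as 3 weeks in the protocol. Females received 5 IU of the gonadotropin PMSG, and fully grown oocytes of at least 70 µm were taken after 48 hours. Each library pooled about 20 oocytes, in 4 separate experiments. The labels do not tie libraries to single animals, so p-values measure the spread between these pools. RNA was primed with oligo-dT, so RNA without a poly(A) tail was poorly captured, and the libraries do not mark strand. Each value is a share of its library, so fewer molecules per oocyte and a smaller contribution from some oocytes cannot be told apart.

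Sequences of 9 members that the results below name are shown here as a description. The first set gives the last 60 bases of the longest annotated transcript (GENCODE M21, GRCm38), written 5′ to 3′ on the gene's strand, with the poly(A) signal AATAAA in capitals. Gm49371 (chr12:19564098-19564157) and Gm35217 (chr14:28777427-28777486) fell most, and Gm45768 (chr7:37317899-37317958) rose most among the lincRNAs named for large changes. A730082K24Rik (chr7:114983901-114983960) and Gm1070 (chr6:71302821-71302880) had the most counts, Gm20362 (chr6:79035810-79035869) was the member of the 10 most counted that rose, and E330012B07Rik (chr6:147208226-147208285) had exons that moved in opposite directions.
Gm49371: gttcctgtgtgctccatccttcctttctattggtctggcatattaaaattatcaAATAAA
Gm35217: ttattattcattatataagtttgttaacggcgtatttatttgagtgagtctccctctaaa
Gm45768: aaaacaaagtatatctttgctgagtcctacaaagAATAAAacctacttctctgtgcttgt
A730082K24Rik: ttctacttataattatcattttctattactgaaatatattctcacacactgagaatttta
Gm1070: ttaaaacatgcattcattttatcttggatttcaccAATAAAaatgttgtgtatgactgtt
Gm20362: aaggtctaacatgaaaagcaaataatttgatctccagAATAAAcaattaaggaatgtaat
E330012B07Rik: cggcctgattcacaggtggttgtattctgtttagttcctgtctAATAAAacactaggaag
The signal is present in 5 of these ends, and absent from those of Gm35217 and A730082K24Rik. Over all tested lincRNAs, the last 50 bases of the longest transcript held AATAAA on the transcript strand in 42.0% of genes, against 61.5% of tested protein-coding genes with 80 or more counts and 52.2% of all tested genes. A match is a description of these letters and not a site shown to be used.

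The second set gives 2 promoter windows of 300 bases, from 250 before to 50 after the RefSeq start (GRCm38.p6), on the strand of the lincRNA, with CG dinucleotides in capitals. Both windows also hold the start of a coding gene transcribed the other way, and they are shown because the coding partner moved against the lincRNA in the first pair and with it in the second. The window of 2210406O10Rik lies at chr5:36464805-36465104 on the minus strand and reaches into Grpel1. That of A330008L17Rik lies at chr8:99416424-99416723 on the plus strand and reaches into Cdh8.
2210406O10Rik: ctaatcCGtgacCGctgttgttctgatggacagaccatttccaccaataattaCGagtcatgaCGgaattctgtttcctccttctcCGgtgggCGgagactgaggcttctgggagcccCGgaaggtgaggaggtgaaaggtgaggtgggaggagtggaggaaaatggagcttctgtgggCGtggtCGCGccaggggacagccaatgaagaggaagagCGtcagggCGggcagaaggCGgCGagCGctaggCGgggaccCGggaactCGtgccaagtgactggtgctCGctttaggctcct
A330008L17Rik: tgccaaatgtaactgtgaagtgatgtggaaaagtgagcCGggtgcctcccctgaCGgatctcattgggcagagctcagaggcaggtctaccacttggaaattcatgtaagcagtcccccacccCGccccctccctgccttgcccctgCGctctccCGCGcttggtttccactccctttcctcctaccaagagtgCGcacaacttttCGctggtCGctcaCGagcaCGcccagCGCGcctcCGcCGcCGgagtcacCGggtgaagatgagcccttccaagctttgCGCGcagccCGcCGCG
They hold 19 and 22 CG dinucleotides. RefSeq gave a promoter for 389 members, and for the 230 whose start lay within 100 bases of the GENCODE start the median was 5 CG. It was 4 in the 122 of these that were lower in cKO and 5 in the 40 that were higher. Over all 27025 promoters in the table the median was 7, and over 6166 promoters of tested protein-coding genes it was 20. At least 10 CG were present in 23.9% of the members' windows, 43.9% of all windows and 78.4% of those of tested coding genes.

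The deposited counts on exons summed to 4247471 to 4790038 in the control libraries and 4399190 to 5064008 in the cKO libraries. Virma itself was counted at 61.0, 71.6, 57.1 and 82.05 CPM (counts per 1000000) in control and at 18.6, 24.2, 17.8 and 17.04 CPM in cKO over all its exons (log2 fold change -1.81 ± 0.18, adjusted p = 1.02e-06). Which exons were floxed is not stated by the labels. Reads that met more than 1 exon ID were set apart as ambiguous, 73.8% ± 1.07 (SD, n = 4) of reads in control and 79.3% ± 0.751 (SD, n = 4) in cKO. Reads outside every exon ID ranged from 9.86% to 12.02% in control and from 5.01% to 6.19% in cKO. Oocyte markers were present in all libraries, with a summed level of 11 genes of 31154 to 43574 CPM in control and 15553 to 19156 in cKO, where 5 fell, among them Gdf9 and Bmp15, and none rose. Most of the oocyte sum came from Gdf9 and Bmp15, at means of 13582 and 18799 CPM in control and 8130 and 7334 in cKO. The 16 cumulus and granulosa markers summed to 246 to 422 CPM in control and 456 to 752 in cKO, mostly from Inha and Nr5a2. Of the 11 of these that were tested, 4 rose and 3 fell. Theca and stroma markers summed to at most 3.37 CPM. Of 8 immune and blood markers 5, Ptprc among them, were at 0, and the list summed to 0.239 to 1.55 CPM in control and 5.52 to 9.46 in cKO, mostly from C1qa. The part of these differences in the lincRNA results was not tested.

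LincRNAs were lower in Kiaa1429 cKO oocytes more often than they were higher. Of the 794 members, 771 had enough counts for the test (filterByExpr of edgeR with a minimum count of 10), and of these 397 were lower (51.5%) and 135 were higher (17.5%) at an adjusted p under 0.05. Over all 10673 genes tested 54.9% were called, 27.0% higher and 27.9% lower. The median log2 fold change, cKO over control, was -0.65 for the lincRNAs (quartiles -1.50 and 0.20) and 0.02 for all genes. With last exons, which held 69.5% of the members' counts, left out, 428 members could be tested. Of these 171 were lower and 88 higher, and their median was -0.33. They are fewer genes than the 771, and the shares over all genes under this setting are not given. A change of at least 1 on the log2 scale was seen in 99 of the 135 that rose and in 288 of the 397 that fell. In 120 members every cKO library lay above every control library and in 353 every cKO library lay below, together 61.3% of those tested, against 50.1% of all genes. The 23 members not tested had 80 to 147 counts, and 14 of them had the higher mean in control.

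**Figure D1:**
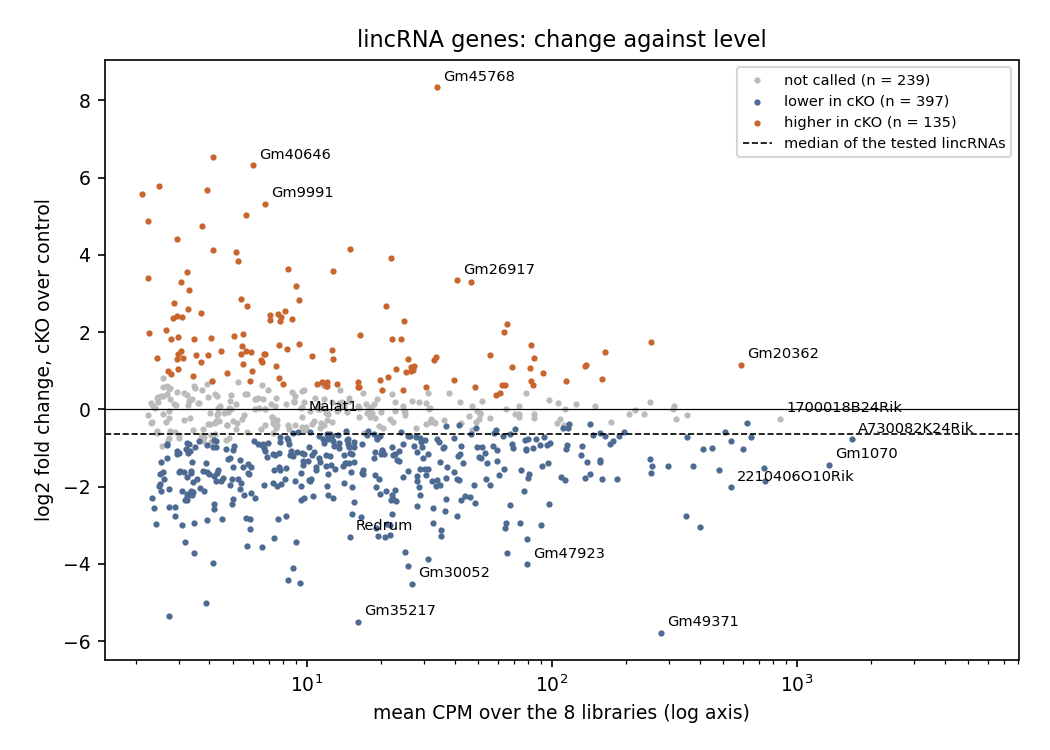
Log2 fold change (cKO over control) of the 771 tested lincRNAs against their mean CPM over the 8 libraries on a log axis. Each point is 1 gene, coloured by its call, and the dashed line is the median of -0.65; most called points lie below 0, with Gm45768 far above.

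The rule on total counts admits genes that were high in 1 group only, and such genes had to differ. At least 40 counts were present in both groups for 621 members, in control alone for 95 and in cKO alone for 78. The counts of calls therefore describe these 794 genes and are not evidence about lincRNA genes below the threshold. Other non-coding classes with 80 or more counts were also more often called lower than higher. Of 295 antisense genes tested 157 fell and 38 rose (median log2 fold change -0.70), of 137 genes of the type TEC, transcripts that await experimental checking, 74 and 18 (-0.88), and of 120 processed transcripts 69 and 21 (-0.89). Protein-coding genes went the other way, with 2392 higher and 1857 lower of 7871 (median 0.10). Differences between these classes were not tested.

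Together the members took 4.25%, 3.74%, 3.74% and 4.40% of the counts in the control libraries and 2.73%, 2.72%, 2.57% and 2.89% in the cKO libraries. The groups did not overlap, with means of 4.03% ± 0.341 and 2.73% ± 0.128 (SD, n = 4 each). Without the 5 most counted members the means were 3.35% and 2.37%. In each library between 784 and 793 of the 794 members had at least 1 count. Replicates varied more in control: over 417 members with a mean of at least 10 CPM, the median coefficient of variation was 21.5% in control and 14.4% in cKO.

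**Figure D2:**
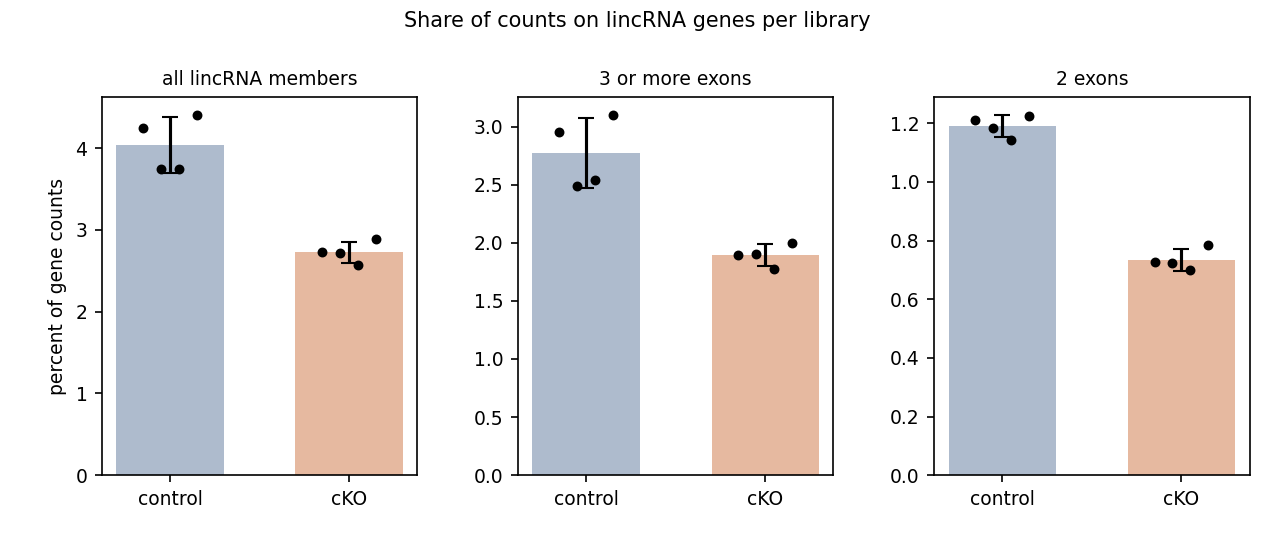
Percent of all gene counts that fell on member lincRNAs, for all members, those with 3 or more annotated exons and those with 2. Bars are means of 4 libraries, error bars SD and points single libraries; in each panel the 4 cKO libraries sit below the 4 control libraries.

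The 10 most counted members, by mean CPM with no correction for length, held 24.1% of the members' counts, and 8 of them were lower in cKO. A730082K24Rik (chr7:114948650-114983960, plus strand, up to 5 exons), whose function is not given in the annotation, had the most counts. It was at 2233, 1728, 1999.6 and 2474 CPM in the control libraries and 1384, 1238, 1094 and 1249 CPM in the cKO libraries, and the groups did not overlap (log2 fold change -0.76 ± 0.13, adjusted p = 1.72e-04). With last exons left out this call was lost (log2 fold change -0.41). Gm1070 (chr6:71293765-71302880, plus strand, 2 exons, overlapping the coding gene Smyd1) was at 1492, 2331, 2774 and 1279 CPM in the control libraries and 748, 708, 747 and 716 CPM in the cKO libraries. Control libraries 2 and 3 were the high ones, and all cKO libraries lay within a narrow range below them (log2 fold change -1.43 ± 0.20, adjusted p = 2.52e-05). Gm4961 (chr5, 2 exons) fell from 1165 ± 98.2 to 319 ± 47.9 CPM (SD, n = 4 each; log2 fold change -1.87 ± 0.14, adjusted p = 5.94e-08). Gm11827 (chr4, 3 exons) fell from 1084 ± 124 to 378 ± 36.9 CPM (log2 fold change -1.52 ± 0.13, adjusted p = 2.21e-07), a call that was lost with last exons left out (log2 fold change -0.18). Gm43950, Gm48704 and Gm839 fell by 1.03, 0.83 and 0.72 on the log2 scale. The groups of Gm48704 overlapped, with control library 2 at 485 CPM and cKO library 4 at 522 CPM. Gm14664 was called narrowly (log2 fold change -0.35 ± 0.12, adjusted p = 0.0285) and lost the call when control library 1 or 4 or any 1 of the cKO libraries was left out (log2 fold changes from -0.35 to -0.30). 1700018B24Rik, the third by counts, was at 1021, 818, 756 and 1111 CPM in the control libraries and 752, 837, 781 and 765 CPM in the cKO libraries, with groups that overlapped and no call (log2 fold change -0.24 ± 0.13, adjusted p = 0.144). Gm20362 (chr6:79032044-79035869, plus strand, 3 exons, with no coding gene within 50 kb) was the exception among the 10. It was at 413, 272, 354 and 428 CPM in the control libraries and 803, 847, 775 and 841 CPM in the cKO libraries, so every cKO library lay above every control library (log2 fold change 1.16 ± 0.14, adjusted p = 8.00e-06). Per kb of countable exon, the highest level in control was that of Gm14664 with a mean of 1597 CPM per kb, followed by 1700018B24Rik with 1562 and A730082K24Rik with 1432.

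Among called members with a mean of at least 5 CPM and groups that did not overlap, the largest fall was that of Gm49371 (chr12:19560110-19564157, plus strand, 3 exons). It was at 586, 625, 471 and 504 CPM in the control libraries and 10.4, 18.9, 6.88 and 3.74 CPM in the cKO libraries. Its mean CPM ranked 25 among the members, and the fit put its cKO level at 1.82% of control (log2 fold change -5.78 ± 0.34, adjusted p = 8.55e-09). Gm35217 (chr14:28777427-28798421, minus strand, 4 exons) was at 41.5, 21.3, 31.6 and 31.8 CPM in the control libraries and 0, 0.425, 0.430 and 1.69 CPM in the cKO libraries (log2 fold change -5.50 ± 0.44, adjusted p = 1.40e-07). Its first cKO library had 0 counts, where 3 counts would be 0.665 CPM. Gm30052 (chr8:113667926-113676458, minus strand, 3 exons) was at 54.6, 45.5, 49.2 and 56.8 CPM in the control libraries and 2.22, 1.70, 1.72 and 3.18 CPM in the cKO libraries, with little spread in either group (log2 fold change -4.51 ± 0.23, adjusted p = 3.88e-09). The other 9 of the 12 largest falls, by 3.57 to 4.49 on the log2 scale, were Gm10466, Gm47849, Gm9898, Gm13632, Gm47923, Gm47066, Gm39465, Gm13200 and 4930423M02Rik. Their adjusted p-values ran from 6.53e-09 to 6.69e-07. Gm47923 had the most counts in control of these 9, with 145, 170.0, 150.2 and 132 CPM in the control libraries and 7.53, 9.77, 2.58 and 16.9 CPM in the cKO libraries. Gm13632 shares 39.8% of its 31-base words with transcripts of the coding gene Sirt5, so its reads may be split between genes.

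The largest rise was that of Gm45768 (chr7:37317899-37321100, minus strand), a gene of 1 exon of 3202 bases that lies 151035 bases from Zfp536, a coding gene for a zinc finger protein. It was at 0.444, 0, 0.263 and 0 CPM in the control libraries and 68.5, 70.8, 69.6 and 62.5 CPM in the cKO libraries. In all, 3 counts in the control libraries stood against 1300 in cKO, a ratio per library total of 415 with a 95% Clopper-Pearson interval of 142 to 2013, which covers counting error only (log2 fold change 8.34 ± 0.35, adjusted p = 1.73e-09). Gm40646 (chr10:51863852-51970291, minus strand, 4 exons) had 2 counts in control and 230 in cKO, a ratio of 110.0 (95% interval 30.1 to 914). Gm9991 had 5 and 255 counts (ratio 48.8, interval 20.6 to 152), and 1700120G11Rik had 5 and 209 (ratio 39.99, interval 16.9 to 124). In these 4 genes every cKO library lay above every control library, and fold changes from the fit depend on the prior count. Gm44618 and Gm4349 rose from low but well counted levels, Gm44618 from 2.74 ± 0.961 to 41.4 ± 7.81 CPM (log2 fold change 3.91 ± 0.26, adjusted p = 3.09e-08) and Gm4349 from 8.61 ± 3.16 to 84.97 ± 10.8 CPM (log2 fold change 3.30 ± 0.22, adjusted p = 3.09e-08). Gm35585, Gm14487, Gm48215, D230030E09Rik and Gm30228 make up the list with rises of 3.59 to 4.14 on the log2 scale, together with Gm26917. Gm26917 (chr17:39843013-39846341, plus strand) ends 12 bases before Rn18s-rs5, an 18S ribosomal RNA pseudogene in RefSeq, and was at 8.43, 11.01, 6.84 and 3.002 CPM in the control libraries and 97.7, 63.3, 49.4 and 88.2 CPM in the cKO libraries (log2 fold change 3.34 ± 0.31, adjusted p = 5.09e-07). Its transcript is 69.1% G and C.

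**Figure D3:**
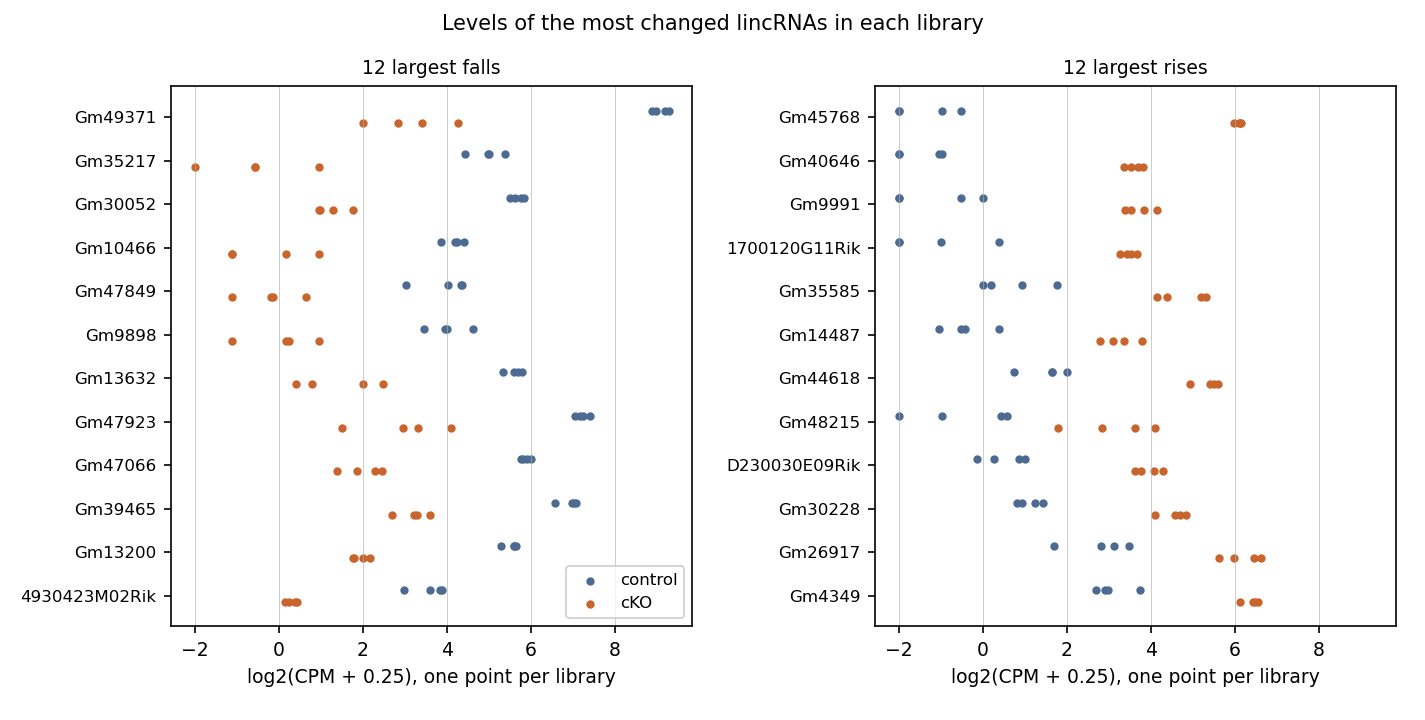
Level of the 12 lincRNAs with the largest falls and the 12 with the largest rises, as log2(CPM + 0.25), with 1 point per library. The rule for this list required groups that do not overlap, so the 4 control and 4 cKO libraries separate in each row by choice. The leftmost points are libraries with 0 counts.

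Few of the well-studied non-coding RNAs were members, in part because GENCODE gives some well-counted ones another gene type. Mir22hg, a processed transcript, had 12551 counts over all libraries and rose (log2 fold change 1.502, adjusted p = 7.94e-07). Tug1, of the antisense type, had 362 counts and fell (log2 fold change -2.21, adjusted p = 3.84e-06). Snhg14 and Firre, processed transcripts with 263 and 89 counts, fell as well (log2 fold changes -0.979 and -1.04). Malat1, a nuclear-speckle RNA among the most abundant in many tissues, was at 14.6, 8.86, 8.94 and 8.25 CPM in the control libraries and 7.31, 9.14, 8.17 and 11.05 CPM in the cKO libraries, with groups that overlapped (log2 fold change -0.19 ± 0.24, adjusted p = 0.523). Without control library 1 its log2 fold change was 0.03 (edgeR adjusted p = 0.934). Neat1, the scaffold of paraspeckles, and Xist, which silences 1 X chromosome in somatic cells of females, had 10 and 9 counts over all libraries and were not members. Pvt1, next to Myc, and Snhg18, a host gene of small nucleolar RNA, were not called (log2 fold changes -0.26 and -0.26, adjusted p = 0.190 and 0.148). Mir17hg, host gene of a microRNA cluster, was at 2.22, 2.87, 2.37 and 2.25 CPM in the control libraries and 4.87, 4.46, 3.87 and 4.49 CPM in the cKO libraries and rose (log2 fold change 0.86 ± 0.27, adjusted p = 0.0129). Without the low-count filter the call was lost (log2 fold change 0.87, adjusted p = 0.0620). Halr1, in the Hoxa region, was called lower (log2 fold change -0.63 ± 0.23, adjusted p = 0.0326), and leaving out control library 2 or 4 or cKO library 2, 3 or 4 ended that call (log2 fold changes from -0.63 to -0.45). Redrum, described in red blood cell development, was at 16.6, 37.3, 18.4 and 36.3 CPM in the control libraries and 3.10, 2.34, 1.93 and 3.56 CPM in the cKO libraries and every cKO library lay below every control library (log2 fold change -3.29 ± 0.33, adjusted p = 1.02e-06). Of the Platr genes, named for their association with pluripotency, 3 were members: Platr26 rose (log2 fold change 1.69 ± 0.21, adjusted p = 8.77e-06), and Platr22 and Platr30 fell (log2 fold changes -1.03 and -1.85, adjusted p = 0.00271 and 4.24e-05). Platr14 and Platr9, typed as processed transcripts, had 1849 and 445 counts and fell (log2 fold changes -1.28 and -1.52). Platr25 and Platr17, typed as protein-coding, had 410 and 1100 counts. Platr25 fell (log2 fold change -0.888) and Platr17 was not called (log2 fold change 0.317). Platr30 shares 93.6% of its 31-base words with the lincRNA Gm17575, so its value may belong to either gene. Over all members 14 shared more than 50% of such words with 1 other gene elsewhere.

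By the largest number of exons in any annotated transcript, 20 members had 1 exon, 227 had 2 and 547 had 3 or more. The share lower in cKO was 51.4% of 218 tested with 2 exons and 51.9% of 534 with 3 or more, and the share higher was 18.8% and 17.0%. Of the 19 tested members with 1 exon 8 were lower and 3 were higher. Median log2 fold changes were -0.34, -0.72 and -0.64 in that order. A finer division showed no steady trend, with medians of -0.68 at 3 exons, -0.49 at 4, -0.63 at 5 and -0.60 at 6 or more, and Spearman's rho of log2 fold change and exon number was 0.05 over the 771 genes. Differences between exon classes were not tested. Of all counts, the 1-exon members took 0.0747% ± 0.00773 in control and 0.0996% ± 0.00468 in cKO (SD, n = 4 each). Among them Gm45768 rose most by fold change, which does not give its part of this share. The 2-exon members took 1.19% ± 0.0366 and 0.734% ± 0.0368, and those with 3 or more 2.77% ± 0.302 and 1.89% ± 0.0928.

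**Figure D4:**
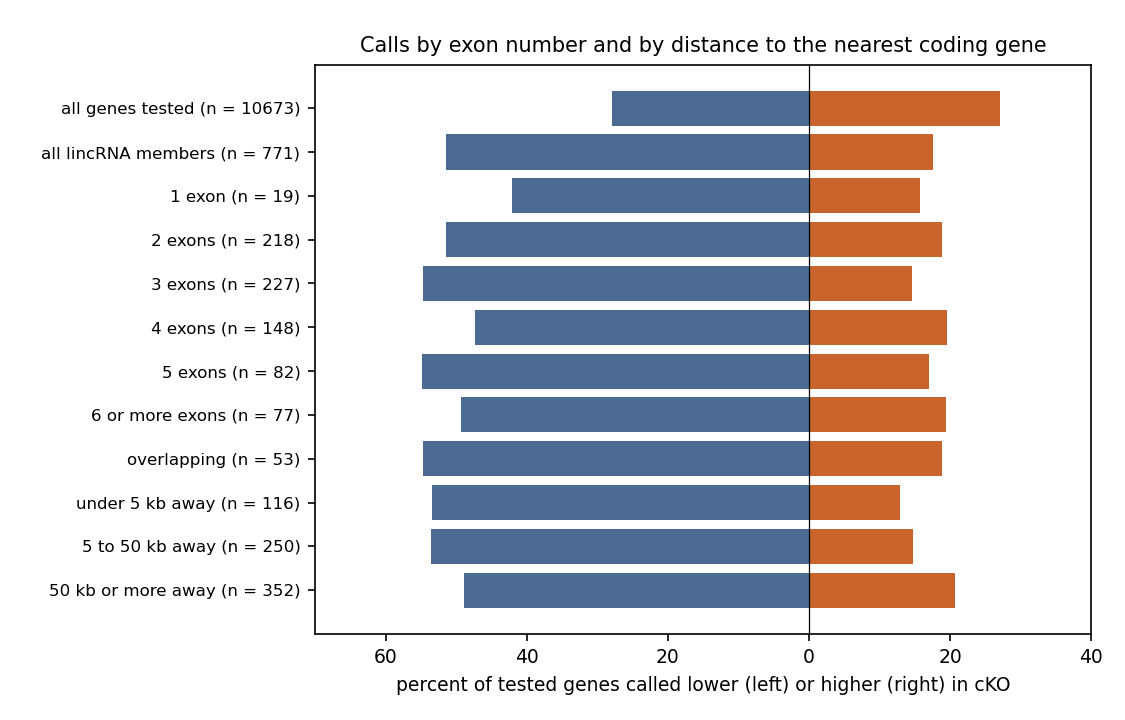
Percent of tested genes called lower (bars to the left) or higher (bars to the right) in cKO, for all genes tested, all lincRNA members, members by exon number and members by distance to the nearest coding gene. The left bars of the lincRNA classes run from 42.1% to 54.9%, against 27.9% for all genes.

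Counts per exon allowed a look within genes. Of 14052 exons tested over all genes, 26.2% were higher and 27.3% lower in cKO, with a median log2 fold change of 0.01. The members had 1075 tested exons in 712 genes, of which 525 were lower and 187 higher. Exons that end an annotated transcript had a median of -0.74 (583 exons, 308 lower and 98 higher), and exons that end none had -0.48 (492 exons, 217 lower and 89 higher). The same split over all tested exons is not given, so this gap is not shown to be particular to lincRNAs. Last exons held 85.5% of the counts of all genes. Of 270 members with at least 2 tested exons, 198 had the same sign in all of them. The same count over all genes is not given. At least 2 exons were called in 154 members, all lower in 105, all higher in 36 and in opposite directions in 13.

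E330012B07Rik (chr6:147180244-147208285, plus strand, 3 exons) had the most counts of the 4 members named for opposite exons. As a whole gene it was lower in cKO (log2 fold change -1.47 ± 0.19, adjusted p = 1.12e-05). Its long last exon of 2176 bases was at 317, 517, 382 and 639.6 CPM in the control libraries and 58.9, 67.03, 66.3 and 83.3 CPM in the cKO libraries (log2 fold change -2.75 ± 0.21, adjusted p = 7.19e-08). An alternative last exon fell as well (log2 fold change -3.004 ± 0.255, adjusted p = 2.35e-07). An internal exon of 102 bases went the other way, at 36.9, 54.7, 46.3 and 106 CPM in the control libraries and 125, 135, 135 and 129.7 CPM in the cKO libraries (log2 fold change 1.11 ± 0.25, adjusted p = 0.00147). Every cKO library lay above every control library there, and with last exons left out the whole gene had a log2 fold change of 1.25. Gm47448 differed in the sign of the whole gene, which rose (log2 fold change 1.49 ± 0.15, adjusted p = 1.40e-06). Its 185-base exon rose (log2 fold change 1.60 ± 0.15, adjusted p = 6.26e-07). So did a 123-base exon and a 23-base exon that ends a transcript (log2 fold changes 3.05 and 1.496, adjusted p = 4.16e-05 and 2.40e-05). As in E330012B07Rik, an exon that ends a transcript fell, here 226 bases long and ending a shorter transcript (log2 fold change -1.55 ± 0.39, adjusted p = 0.00332). The groups of this 226-base exon overlapped, with the lowest control library at 2.69 CPM and the highest cKO library at 2.72 CPM. In 2610037D02Rik (chr15:96134819-96284495, minus strand, up to 7 exons) a 737-base exon fell from 53.3 ± 3.72 to 8.84 ± 3.43 CPM, and the most distal exon of 710 bases rose from 0.807 ± 0.432 to 3.22 ± 0.824 CPM (SD, n = 4 each). In Mkln1os, which overlaps the coding gene Mkln1, 2 exons that each end a transcript diverged. The upstream one of 1622 bases fell (log2 fold change -2.69 ± 0.27, adjusted p = 1.19e-06) and the distal one of 708 bases rose (log2 fold change 1.31 ± 0.32, adjusted p = 0.00311). The counting rule measures an exon only where no other exon ID overlaps it, so these values are not whole-transcript levels.

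**Figure D5:**
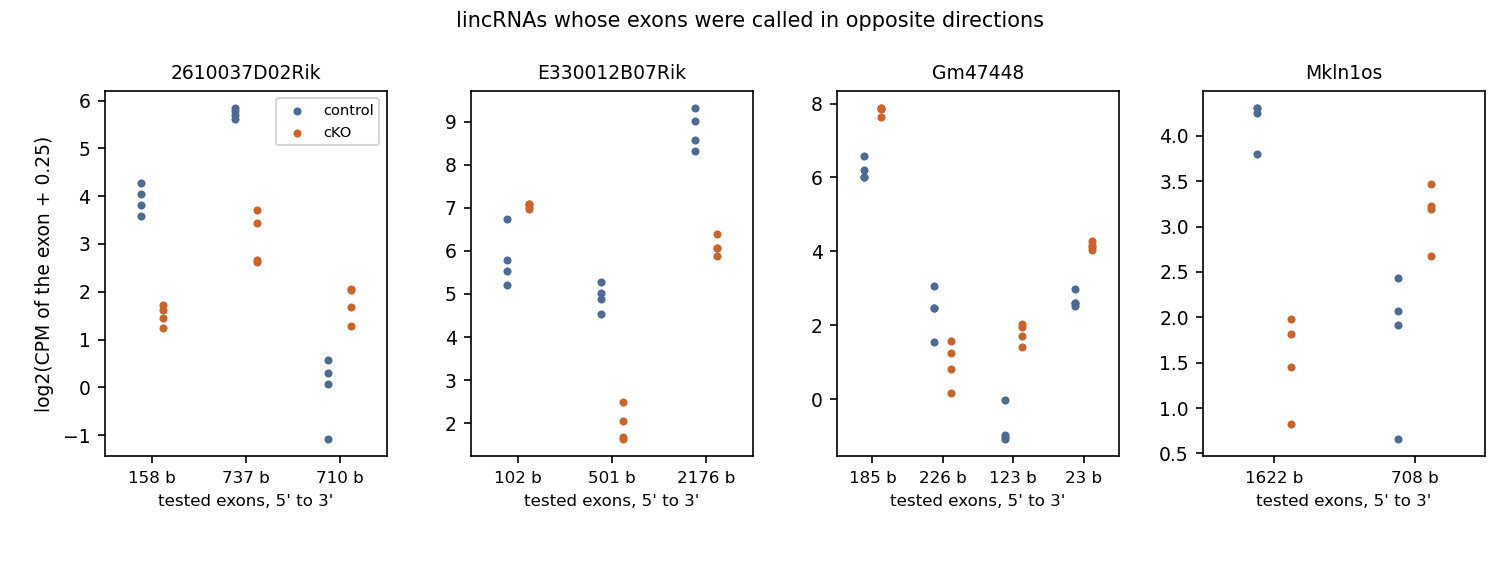
Level of each tested exon of 4 lincRNAs, as log2(CPM of the exon + 0.25), with exons in transcript order, their lengths in bases on the x axis and 1 point per library. In E330012B07Rik the first exon shown is higher in all 4 cKO libraries and both other exons are lower.

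By the distance to the nearest protein-coding gene on either strand, 55 members overlapped one, 119 lay under 5 kb away, 257 at 5 to 50 kb and 363 at 50 kb or more. The share lower in cKO was 54.7% of 53 tested, 53.4% of 116, 53.6% of 250 and 48.9% of 352 in that order, and the share higher was 18.9%, 12.9%, 14.8% and 20.7%. Median log2 fold changes were -0.83, -0.76, -0.65 and -0.59. These medians come in the order of distance, yet over the 771 genes Spearman's rho of log2 fold change and distance was 0.07. Within 5 kb, 52 tested divergent members, which start back to back with the coding gene, had 30 lower and 6 higher (median -0.88), and 16 convergent ones had 9 and 4 (-0.51). Of 18 members downstream of a coding gene on its strand 7 were lower and 2 higher (-0.40), and of 30 upstream 16 and 3 (-0.63). Differences between distance or orientation classes were not tested.

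A member and its nearest coding gene were both tested in 407 pairs, and 218 of these had the same sign. Both were called in 161 pairs, in the same direction in 87 and in opposite directions in 74, of which 54 had the lincRNA lower and the coding gene higher. Under 5 kb the same sign was seen in 36 of 76 pairs, and 26 pairs with both called split into 13 and 13. In the 26 overlapping pairs the sign was the same in 20. Reads that met exons of both genes were set apart as ambiguous. Other reads in an overlap could not be assigned to a strand, and their part in these signs was not tested. Spearman's rho of the paired log2 fold changes was 0.08 over all pairs, which share libraries and in part the coding gene (350 genes).

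2210406O10Rik (chr5:36447611-36464853, minus strand, 3 exons), whose promoter is printed above, starts 145 bases from Grpel1, which encodes a cochaperone of mitochondrial protein import. The lincRNA was at 932, 666, 758 and 1085 CPM in the control libraries and 219, 229, 185 and 224 CPM in the cKO libraries (log2 fold change -2.01 ± 0.16, adjusted p = 1.22e-07). Grpel1 was at 351, 321, 408 and 262 CPM in the control libraries and 429.8, 433, 451 and 421 CPM in the cKO libraries (log2 fold change 0.37 ± 0.14, adjusted p = 0.0317). The groups separated in both genes, downward in the lincRNA and slightly upward in the coding gene. Gm17586 lies 168 bases from Mafg, a small Maf transcription factor, also back to back, and fell (log2 fold change -1.67 ± 0.20, adjusted p = 5.36e-06) as Mafg rose (log2 fold change 0.69 ± 0.17, adjusted p = 0.00274). Gm36283, downstream of Pawr, a pro-apoptotic regulator, was at 35.04, 41.2, 31.04 and 39.3 CPM in the control libraries and 6.65, 8.29, 6.66 and 7.30 CPM in the cKO libraries. Pawr was at 33.5, 28.01, 24.2 and 32.8 CPM in the control libraries and 82.2, 70.3, 60.6 and 82.01 CPM in the cKO libraries (log2 fold change 1.31 ± 0.17, adjusted p = 1.09e-05), all cKO libraries above all control libraries. The other opposite pairs named were 2610037D02Rik with Arid2, a chromatin remodelling subunit (log2 fold changes -2.23 and 0.45), Gm39526 with Zxdb (-2.99 and 1.08) and 2210404E10Rik with Vps37c, an ESCRT subunit (-1.06 and 0.84).

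A330008L17Rik (chr8:99416642-99733438, plus strand, 5 exons), the other promoter printed, starts 171 bases from Cdh8, which encodes a cadherin. The lincRNA was at 18.2, 20.8, 14.99 and 23.3 CPM in the control libraries and 4.65, 5.95, 4.73 and 4.31 CPM in the cKO libraries (log2 fold change -1.97 ± 0.22, adjusted p = 3.07e-06), and Cdh8 was at 13.3, 14.4, 16.6 and 13.3 CPM in the control libraries and 1.11, 2.55, 0.645 and 1.69 CPM in the cKO libraries (log2 fold change -3.23 ± 0.31, adjusted p = 6.45e-07). Gm12976 and C77080, 561 bases apart and back to back, both rose (log2 fold changes 3.55 and 3.17) from at most 0.75 CPM in any control library. Gm29811 and Tbck, which converge 514 bases apart, both fell (-1.81 and -1.02). So did Gm16211 with Zfp534 (-2.95 and -0.75), and Gm30198 with Golga5, a golgin (-1.37 and -0.79). In 4 of these 5 same-direction pairs the log2 fold change of the lincRNA was further from 0 than that of the coding gene. The exception was the pair with Cdh8. Pairs were taken by the smallest p of the lincRNA, which favours a large change in it. The count is therefore no evidence about neighbour pairs in general. The difference within pairs was not tested.

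Members also lay near each other. Within 20 kb they formed 746 loci, 43 of which held at least 2 members (91 members, at most 3 each). In 26 of the 41 loci with at least 2 tested members all had the same sign, and 2 loci had members called in opposite directions. Of the 794 members 536 had the higher mean in control, so many members share a sign wherever they lie. The same count for members that are not neighbours is not given, so 26 of 41 is not shown to reflect nearness. On chr8, Gm45238 (chr8:25443668-25454107) fell from 57.8 ± 7.01 to 7.43 ± 2.14 CPM, while Gm30978 on one side rose from 7.34 ± 2.07 to 18.1 ± 1.93 CPM and Gm31045 on the other from 1.01 ± 0.352 to 4.33 ± 1.07 CPM (SD, n = 4 each). All 3 lie on the minus strand (log2 fold changes -2.95, 1.30 and 2.04). On chr6, 9330102E08Rik fell by 0.72 on the log2 scale next to Gm10010, which rose by 1.38. These loci were named after their values were seen.

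Correlations of the change with features that the choice of members did not use were weak. The median number of GGACT per kb of the longest transcript, on the transcript strand, was 0.97 in tested members and 0.99 in tested coding genes with 80 or more counts. It was 0.92 in members that rose, 1.00 in those that fell and 0.96 in those not called. Members with no GGACT had a median log2 fold change of -0.60 (111 of 231 lower), those with 1 had -0.68 (122 of 215), with 2 -0.41 (63 of 137) and with 3 or more -0.73 (101 of 188). Spearman's rho with log2 fold change was -0.04 for GGACT per kb, -0.03 for transcript length and -0.05 for GC content. All are over 771 genes of the same 8 libraries and are given as descriptions.

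Nuclear RNA decay and early termination limit many non-coding transcripts: the exosome degrades RNA from its 3′ end, adaptors of the cap-binding and PAXT or NEXT type feed it, and the Integrator complex ends transcription early. Of 47 genes of these kinds 20 were tested, 5 of them rose and 2 fell, with a median log2 fold change of 0.14. Over all genes 27.0% were called higher and 27.9% lower, so the rises are near the background in number and the falls below it, and the genes that follow are given for their values only. Ncbp1 and Ncbp3, which bind the RNA cap, rose (log2 fold changes 1.36 and 0.37, adjusted p = 0.00320 and 0.0254), as did the exosome subunit Exosc4 (0.45, adjusted p = 0.0477). Of the Integrator subunits Ints2 and Ints6 rose (1.09 and 1.00) and Ints14 and Ints5 fell (-1.09 and -0.996). The nuclear m6A reader Ythdc1 had too few counts to be tested, and the genes not tested are not shown to lack change.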

How the data were processed

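RNA of GV oocytes was measured in 8 libraries, 4 control and 4 Kiaa1429 cKO. The files deposited by the authors give whole-number counts for each exon ID. The submitters' processing notes name STAR and HTSeq and the build mm10, while versions, options and annotation are not given in the sources. Reads that met more than 1 exon ID stand apart as ambiguous in the deposited files, so an exon was counted mainly where no other exon ID overlaps it. This lowers the counts of genes whose exons overlap or are short.

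Of 496288 exon IDs, 494230 (99.6%) matched GENCODE M21 with versions ignored, and the others held 0.252% of counts. Counts were summed per gene. The 5 summary rows of each file name no exon and stayed out of library sizes and tests. Genes passing filterByExpr (minimum count 10) were scaled with TMM, and edgeR 4.0.16 in R 4.3.3 ran its quasi-likelihood test, group being the only term, two-sided, with Benjamini-Hochberg adjustment over all genes tested. Exons were fitted the same way. A standard error is the size of the log2 fold change over the root of the F statistic. CPM uses TMM-scaled library sizes. With no scaling, log2 fold changes moved upward by a median of 0.16 over all genes, and the members' median was -0.50. With scaling on protein-coding genes the median shift was -0.09, and the members' median was -0.73. The weight of 3 counts was 0.562 to 0.789 CPM, depending on the library. Intervals cover counting error only, since amplified reads are not independent molecules. The fits were tested on simulated data.

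Distances run from gene to gene on either strand. Of the members' exon IDs 4.10% touch another gene and hold 3.33% of their counts, and such reads cannot be assigned to a strand. Shared 31-base words were counted over annotated transcripts of genes that do not overlap.

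Genes named in the text are the 10 members with the most CPM, the 12 largest rises and 12 largest falls among called members with a mean of at least 5 CPM and groups that do not overlap, members on a list of characterised non-coding RNAs, 4 members with exons called in opposite directions (those with the widest gap, an order the rule did not set), 6 neighbour pairs within 5 kb moving oppositely and 6 together (1 of which is not reported here), and genes at the threshold. The neighbour pairs were those with the smallest p of the lincRNA in the edgeR test. The members, lists and rules were chosen with earlier results of these data known. The alternatives tried are other scalings, DESeq2 1.42.0, other count filters and thresholds, exons left out, each library left out, a replicate block, same-strand distances and merged exons.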

Additional observations from a re-analysis of the deposited data

Results flagged for a closer look

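In 130 groups of 4 libraries, those of the named members, 4 held a library further from the others than Dixon's 95% critical value allows, and chance alone flags about 1 group in 20. Gm13200 was at 39.0 CPM in control library 2 and at 48.4 to 50.0 CPM in the other controls. Malat1 was at 14.6 CPM in control library 1 and at 8.25 to 8.94 CPM in the other controls. Gm47448 was at 218 CPM in cKO library 1, with the other cKO libraries at 252.0 to 252.1 CPM. Gm30198 was at 71.8 CPM in cKO library 3 and at 91.7 to 94.8 CPM in the other cKO libraries. None of these calls changed when the library was left out, and Malat1, not called either way, moved to a log2 fold change of 0.03. Outside the counts on exons, ambiguous reads were 79.3% of reads on average in cKO and 73.8% in control, and their part in the lincRNA counts was not tested.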

How the results depend on the processing

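Counts of lincRNAs called higher and lower, 135 and 397, stayed within 1.5 times under RLE factors (131 and 397), scaling on protein-coding genes (118 and 408), no scaling (151 and 359), DESeq2 (131 and 390), no low-count filter (134 and 396), exons touching no other gene (133 and 382), total thresholds of 160 (98 and 325) and 40 counts (144 and 408), and with each library left out (120 to 135 and 370 to 407). The numbers 1 to 4 were not used to pair the samples. Correlations of same-numbered libraries were 0.10, -0.05, 0.10 and 0.06. Of the 4 control libraries, 2 correlated best with the cKO library of their own number. These values do not settle whether the numbers mark the separate experiments. A replicate block gave 135 and 396 calls, and 188 and 514 for exons.

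A minimum count of 40 left 459 members tested, of which 72 were higher and 267 lower. With last exons left out 428 were tested, 88 were higher and 171 lower, and the median log2 fold change was -0.33. Of the 299 called members that could still be tested 289 kept their sign and 237 their call. E330012B07Rik reversed to 1.25. By exon number, the minimum count of 40 gave 5 lower with 1 exon, 20 higher with 2 and 50 higher with 3 or more. Leaving out last exons gave 20 higher and 35 lower with 2 exons and 136 lower with 3 or more, and left no 1-exon member. Merged exons gave 5 higher with 1 exon. By distance, the minimum count of 40 gave 4 higher and 19 lower among overlapping members, 8 and 41 under 5 kb, 18 higher at 5 to 50 kb and 42 higher beyond. Leaving out last exons gave 6 and 8, 8 and 23, 59 lower at 5 to 50 kb, and 42 and 81 beyond. Same-strand coding genes gave 1 and 6 overlapping and 6 and 26 under 5 kb. The counts by exon number and distance come without the number tested in each class, so they show no change in share. Shares over all genes under these settings are not given. The cause of the changes in number was not tested, beyond the fewer genes or counts that these settings leave.

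The members' share of counts was 3.91% to 4.13% in control and 2.68% to 2.78% in cKO with a library left out, and 3.35% and 2.37% without the 5 most counted. Of 944 values of 58 named members under alternatives, 924 kept direction and call. Mir17hg lost its call without the low-count filter (log2 fold change 0.87), and 1700018B24Rik was called without control library 3 (log2 fold change -0.32). The share of repeat sequence in exons was planned and not run, since no genome sequence was used here. Depth limits genes near 80 counts, where 23 could not be tested.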

Other observations

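By chromosome, the median log2 fold change of tested members was lowest on chr18 (-1.26, 6 of 7 lower), chr9 (-1.02, 26 of 44 lower), chr19 (-0.94, 5 of 7 lower), chr6 (-0.92, 29 of 46 lower) and chrX (-0.90, 11 of 13 lower). It was nearest 0 on chr2 (-0.02, 18 of 50 lower and 10 higher) and chr1 (-0.24, 30 of 64 lower and 14 higher). Over all tested members 51.5% were lower and 17.5% higher, and over all genes tested 27.9% and 27.0%. Shares over all genes of each chromosome are not given, so no chromosome is shown to stand out for its lincRNAs. The values per chromosome are descriptions of small groups, and differences between chromosomes were not tested.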
